A study of Mus musculus with 12 samples.

Results

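The genes described are 10 components of innate sensing in mouse mesangial cells (MMC): the Toll-like receptors Tlr2, Tlr3 and Tlr4 with their adaptors Myd88 and Ticam1, and the cytosolic RNA helicases Ddx58, Ifih1 and Dhx58 with their adaptor Mavs and the mitochondrial regulator Nlrx1. They were taken by symbol from the 25230 genes in the deposited counts, and all 10 were found. The name "RNA sensors" covers only some of them, since Tlr2 and Tlr4 recognise bacterial products and 4 of the 10 are adaptors or a regulator. Libraries came from cultured kidney mesangial cells of wild-type (WT) mice and of lncMGC-KO mice, a line in which CRISPR-Cas9 removed a short stretch near the start of lncMGC, the host transcript of the miR-379 microRNA cluster. Cells of each genotype were either kept in serum depletion (SD) or given 10 ng/ml of TGF-β for 24 h, the cytokine that drives matrix production in diabetic kidney disease. The resulting groups (WT-SD and WT-TGF, KO-SD and KO-TGF, 4 in all) held 3 libraries each. The libraries labelled KO come from 1 mutant line (KO5), so the genotype cannot be told apart from other differences between these cultures. The sources do not say whether the 3 libraries of a group came from separate animals, so p-values measure the spread between libraries, which may be technical.

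Toll-like receptors sit in the plasma membrane (Tlr2, Tlr4) or in endosomes (Tlr3) and signal through Myd88, Ticam1 (TRIF) or both to NF-κB and interferon regulatory factors. Ddx58 (RIG-I) and Ifih1 (MDA5) bind viral or misplaced double-stranded RNA in the cytosol and pass the signal to Mavs on mitochondria, which leads to type I interferon. Dhx58 (LGP2) modulates both helicases, and Nlrx1, a NOD-like receptor of mitochondria, is known as a regulator of Mavs signaling. Mesangial cells, the contractile cells of the glomerulus, are known to express several of these receptors.

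Promoter sequences of RefSeq (GRCm38.p6, 250 bases before to 50 bases after an annotated start) were present for 8 of the 10 genes. Dhx58 and Tlr4 are named only. Since the helicases are known interferon-stimulated genes and Tlr2 a known NF-κB target, the windows were searched on both strands for the core of the interferon-stimulated response element (GAAA, any 2 bases, GAAA) and for a κB-like sequence (GGG, any 3 bases, TTCC). These motifs were chosen with the sequences in view, and no member's window held both. The interferon core stood in the windows of Ddx58, Ifih1 and Myd88 and in 3.44% of 32851 RefSeq promoters. The κB-like sequence stood in those of Tlr2 and Tlr3 and in 5.56% of the promoters. The annotated start is that of a RefSeq transcript, and for Tlr2 and Tlr3 it lies within the gene's span, downstream of its 5′ end. The sequences below show where these matches lie, in capitals, 5′ to 3′ along the gene. For Ddx58 and Ifih1, where the match lies after the start, 30 bases round it are given, and for the others the 250 bases before the start.
Ddx58, chr4:40239804-40239833, minus strand, match 2 bases after the start and on the opposite strand: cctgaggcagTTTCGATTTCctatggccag
Ifih1, chr2:62646206-62646235, minus strand, match 32 bases after the start: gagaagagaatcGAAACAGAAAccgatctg
Myd88, chr9:119340019-119340268, minus strand, match 40 bases before the start: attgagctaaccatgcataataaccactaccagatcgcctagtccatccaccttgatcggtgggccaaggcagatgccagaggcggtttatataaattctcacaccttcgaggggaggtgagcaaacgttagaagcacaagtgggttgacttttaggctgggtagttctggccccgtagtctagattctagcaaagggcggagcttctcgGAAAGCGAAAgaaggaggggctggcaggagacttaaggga
Tlr2, chr3:83841609-83841858, minus strand, match 173 bases before the start: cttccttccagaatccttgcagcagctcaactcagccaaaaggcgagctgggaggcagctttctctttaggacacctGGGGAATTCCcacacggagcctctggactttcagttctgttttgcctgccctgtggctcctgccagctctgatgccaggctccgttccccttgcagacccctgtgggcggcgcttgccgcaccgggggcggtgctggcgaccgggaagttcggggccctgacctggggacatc
Tlr3, chr8:45410381-45410630, minus strand, match 211 bases before the start: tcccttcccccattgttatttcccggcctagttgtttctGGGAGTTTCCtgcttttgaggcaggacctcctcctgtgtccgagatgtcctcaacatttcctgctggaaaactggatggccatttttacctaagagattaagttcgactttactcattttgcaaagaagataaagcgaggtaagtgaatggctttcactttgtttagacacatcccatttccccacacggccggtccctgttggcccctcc
A match describes letters only, and no binding was measured here.

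The 12 libraries held between 19898050 and 22827706 counts on genes, so depth was nearly equal. lncMGC is not listed by name among the counted genes, so these counts do not check the genotype labels by the targeted transcript itself. KO-SD and KO-TGF below mean the libraries labelled KO. The paper states that mouse lncMGC has exons in common with Rian and Mirg. Mirg, which overlaps the 3′ part of lncMGC, averaged 2.33 ± 0.308 CPM (counts relative to TMM-scaled library size) in WT-SD, and in KO-SD 3.67 ± 0.547 (SD, n = 3). Its neighbours Rian (42.3 against 69.9 CPM) and Meg3 (154 against 199 CPM) were also higher in the mean of KO-SD, so none of these 3 was lower in the libraries labelled KO. Smooth muscle and mesenchymal markers were abundant, with 10 mesangial and pericyte markers summing to 4448 to 4622 CPM in WT-SD and 7371 to 7396 in KO-SD. Acta2, Tagln and Vim made up most of this sum (1567, 714 and 1927 CPM in WT-SD). Among the rarer ones, Des (7.67 CPM in WT-SD, 0.529 in KO-SD) and Ptn (2.77 and 1.21) were lower in the mean of KO-SD. Gata3 (4.03 and 7.21) was higher there, and Itga8 was close (2.89 and 3.05). Thy1 was near 0 in each group, Des averaged under 1 CPM in both groups labelled KO, and the podocyte genes Podxl and Wt1 were well expressed (97.9 and 98.9 CPM in WT-SD, 32.8 and 25.3 in KO-SD, 74.0 and 68.2 in WT-TGF, 25.9 and 11.7 in KO-TGF) while Nphs1 was near 0. The most abundant podocyte marker, Synpo, went the other way with TGF-β (246 CPM in WT-SD, 313 in WT-TGF, 160 in KO-SD, 173 in KO-TGF). The 8 podocyte markers summed to 460 to 469 CPM in WT-SD and 456 to 474 in WT-TGF. Their sum was 218 to 227 CPM in KO-SD and 205 to 220 in KO-TGF. Of 8 glomerular endothelial markers only Ehd3 exceeded 1 CPM in any group mean. The 8 tubular markers summed to 49.0 to 51.8 CPM in WT-SD and 22.1 to 23.0 in KO-SD, most of it Lrp2 in WT-SD (42.6 CPM against 10.8 in KO-SD), while Aqp1 (4.10 against 6.80 CPM) and Slc12a1 (0.358 against 1.25 CPM) were higher in the mean of KO-SD.

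Several marker lists moved with genotype, among them that of macrophages, cells that also express Toll-like receptors. The 16 macrophage markers summed to 30.6 to 32.8 CPM in WT-SD, 19.3 to 23.8 in WT-TGF, 2.43 to 2.70 in KO-SD and 1.18 to 1.87 in KO-TGF. Of the 16, 12 were lower and none higher in SD at a false discovery rate (FDR) <5% in KO, and after TGF-β 13 were lower and none higher. Among all genes tested, 25.2% were lower and 30.9% higher in SD, and 27.8% and 27.2% after TGF-β. Only 4 of the 16 passed the expression limit set for testing, described below, and the others are read from a fit without it. These 4 (Adgre1, Lyz2, Cd68 and Fcer1g) passed through WT libraries only, which favoured a lower value in KO. In that fit 17.9% of 18565 genes were lower in SD, and 3770 of 18565 after TGF-β. Adgre1 (F4/80), a defining marker, averaged 7.67 CPM in WT-SD and 3.96 in WT-TGF and had no count in any library labelled KO. In bulk RNA, fewer cells of a type and less RNA per cell cannot be told apart. What part these transcripts have in the differences between genotypes below was not tested.

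**Figure D1:**
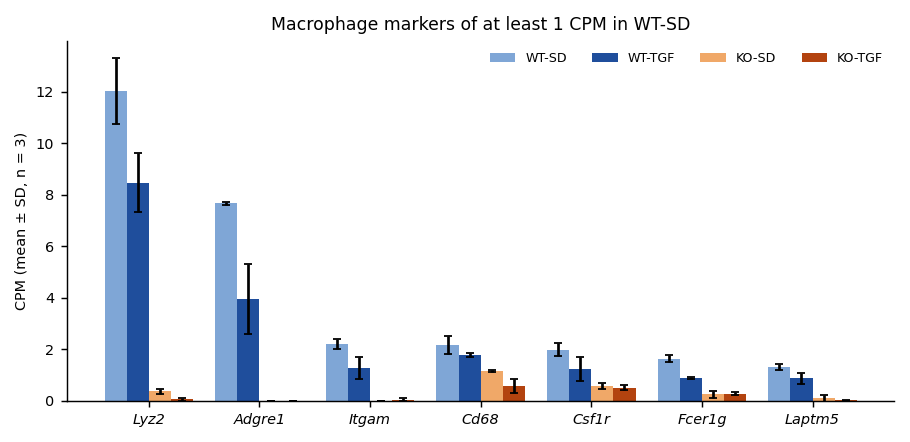
Mean CPM (y axis, linear from 0, error bars SD, n = 3) of the 7 macrophage markers with at least 1 CPM in WT-SD, by group. Bars of the libraries labelled KO are low throughout, and Adgre1 has none, against 7.67 CPM in WT-SD. Choosing the markers by their level in WT-SD favoured that group.

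Per exon length, Tlr2, Mavs and Ddx58 were the most abundant of the 10 genes in WT-SD, and Nlrx1, Ifih1 and Dhx58 the least. In WT-SD, on the RPKM scale (CPM per 1000 bases of exon, mean ± SD, n = 3), Tlr2 led at 21.7 ± 1.05, ahead of Mavs at 15.8 ± 0.60. Ddx58 at 10.9 ± 0.401 and Tlr4 at 10.2 ± 0.282 followed. In WT-SD all neighbours in the order were apart by more than their SDs, most narrowly Ddx58 and Tlr4, whereas in KO-SD Ddx58 and Tlr2 (9.81 ± 0.123 and 9.57 ± 0.224) and Myd88 and Ticam1 (7.35 ± 0.195 and 7.27 ± 0.360) were not. Below Tlr4 in WT-SD came Myd88 at 8.63 ± 0.198, Ticam1 at 6.67 ± 0.235, Tlr3 at 3.93 ± 0.148, Nlrx1 at 2.46 ± 0.127, Ifih1 at 1.97 ± 0.0876 and Dhx58 at 0.679 ± 0.0360. In KO-TGF the order had shifted, with Mavs first at 13.5 ± 0.413 RPKM, Ticam1 next at 8.15 ± 0.465 and Tlr2 sixth at 3.51 ± 0.270. Mavs, Ticam1 and Myd88, the adaptors, held the first 3 places there. Of the 10 genes, 9 passed the limit of RPKM >1 in at least 1 library that was set for testing. Nlrx1 and Ifih1 passed it through the groups where they were high, since both averaged under 1 RPKM in KO-TGF. Ifih1 was also under 1 RPKM in WT-TGF (0.841), so it passed through SD libraries only, which favoured a fall with TGF-β. Dhx58 did not pass, and its values come from a fit without that limit.

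**Figure D2:**
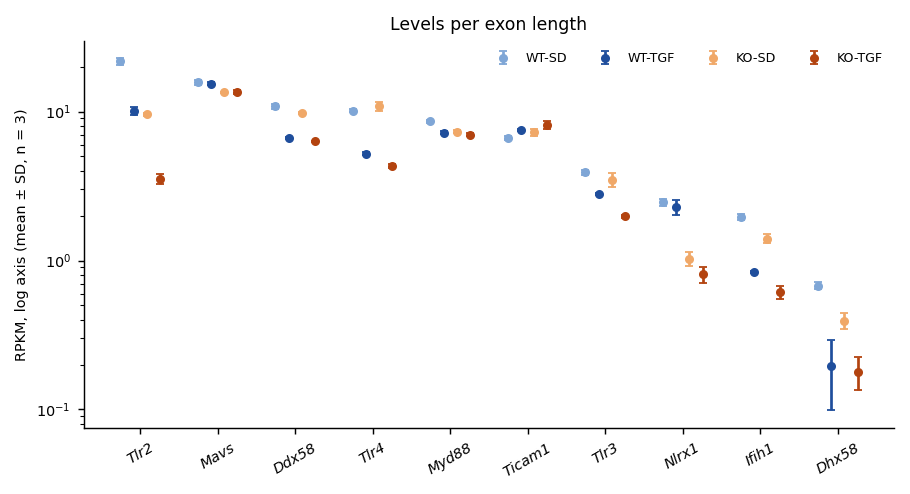
Mean RPKM (y axis, log scale, error bars SD, n = 3) of the 10 genes in the 4 groups, ordered by WT-SD. Mavs, Myd88 and Ticam1 stay within a narrow band, while Tlr2 runs from 21.7 in WT-SD to 3.51 in KO-TGF.

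The first question was whether the genes differed between genotypes in serum depletion. Of the 10, none was higher and 8 were lower in KO-SD at FDR <5% (quasi-likelihood test of edgeR, Benjamini-Hochberg adjustment over all genes tested), against 25.2% of all genes tested lower and 30.9% higher. The members' median log2 fold change was -0.23, and that of all genes was 0.02. Only Nlrx1 and Tlr2 also passed a fold change of 2, which 3.24% of all genes did in this direction. After TGF-β, none was higher and 6 were lower in KO, where 27.8% of all genes were lower and 27.2% higher. The median was -0.24 for the members and -0.00 for all genes, and Nlrx1 and Tlr2 were again the members past a 2-fold change, as were 4.68% of all genes. Scaling by library size alone lowered the share of higher genes among all calls from 55.1% to 36.8% in SD and from 49.5% to 23.3% after TGF-β, put no member among the higher ones, and raised the members lower after TGF-β from 6 to 8 by Ddx58 (adjusted p 0.000126) and Myd88 (0.0171).

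The second question was how the genes responded to TGF-β. In WT MMC, 7 of the 10 fell and 1 rose, against 36.4% of all genes that fell and 36.0% that rose, and the members' median was -0.59 against -0.00 for all genes. In the libraries labelled KO, 7 also fell and 1 rose, against 39.1% and 34.9% of all genes, with medians of -0.73 and -0.03. All 6 receptors and helicases fell in both genotypes, whereas of the adaptors Ticam1 rose, Mavs passed the test in neither and Myd88 fell in WT MMC. Past a 2-fold fall were 3 members in WT MMC (Ifih1, Dhx58 and Tlr2, against 5.78% of all genes) and 4 in KO (these and Tlr4, against 9.15%). Of these, Ifih1 had passed the RPKM limit through SD libraries only, which favoured its fall. With library size alone the share of higher genes among all calls went from 49.7% to 30.4% in WT and from 47.2% to 25.5% in KO, and the rise of Ticam1 was lost. The genotype and TGF-β comparisons share libraries and are not independent of each other.

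**Figure D3:**
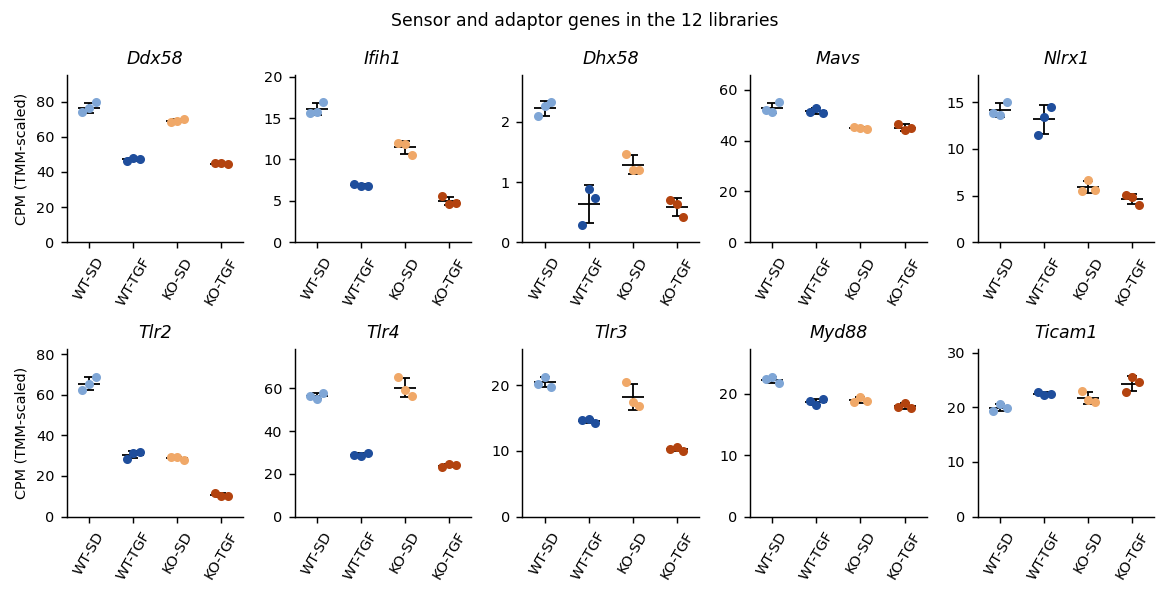
TMM-scaled CPM (y axis, linear from 0) of each of the 10 genes in each library (points) of the 4 groups, with group mean and SD (black, n = 3). The 6 receptors and helicases drop with TGF-β in both genotypes, and Nlrx1 and Tlr2 are lower in the libraries labelled KO in both conditions.

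Tlr2 (chr3:83836272-83841824, minus strand), the receptor for bacterial lipoproteins, changed in every comparison, as did Tlr3. Gene positions here and below are those of RefSeq on GRCm38.p6. In CPM, its WT-SD libraries stood at 62.5, 65.2 and 68.9, WT-TGF at 28.4, 31.4 and 31.7, KO-SD at 29.2, 29.3 and 28.1, and KO-TGF at 11.5, 10.0 and 10.2. WT-SD was highest and KO-TGF lowest without overlap, while the libraries of WT-TGF and KO-SD overlapped. It was 2.27-fold lower in KO in SD (-1.18 ± 0.0486 as log2 fold change and standard error, adjusted p 3.16e-19 by the quasi-likelihood test of edgeR with Benjamini-Hochberg adjustment, as for all adjusted p-values here) and 2.88-fold lower after TGF-β (-1.53 ± 0.0685; adjusted p 3.07e-18). TGF-β lowered it 2.15-fold in WT (adjusted p 6.10e-19) and 2.72-fold in KO (adjusted p 4.78e-18). The fall in KO, from 28.8 ± 0.674 to 10.6 ± 0.813 CPM, took place in libraries without any Adgre1 count, although the summed macrophage markers were also lower in KO-TGF (1.18 to 1.87 CPM) than in KO-SD (2.43 to 2.70), and their part was not tested.

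Tlr4 (chr4:66827551-66846581, plus strand), which recognises lipopolysaccharide, responded to TGF-β about as strongly but did not share the difference in SD. Its levels were 56.6, 54.8 and 57.9 CPM in WT-SD, 28.9, 28.3 and 29.6 in WT-TGF, 65.4, 59.1 and 56.5 in KO-SD, and 23.0, 24.4 and 24.1 in KO-TGF. The SD libraries of the 2 genotypes overlapped, and after TGF-β each library labelled KO lay below each WT library. In SD the log2 difference was 0.10 with a 95% interval of 0.01 to 0.19 and an adjusted p of 0.0613, and it passed the test as higher in KO without a filter on low genes (adjusted p 0.0114), with the filter on CPM (adjusted p 0.0336) and without KO-SD replicate 3 (adjusted p 0.00956). After TGF-β it was lower in KO by -0.28 ± 0.0587 (adjusted p 0.000174). TGF-β lowered Tlr4 1.95-fold in WT (adjusted p 3.71e-17) and 2.53-fold in KO (adjusted p 2.69e-20).

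Tlr3 (chr8:45395665-45411075, minus strand), the endosomal receptor for double-stranded RNA, had CPM of 20.2, 21.3 and 19.8 in WT-SD, 14.7, 14.8 and 14.2 in WT-TGF, 20.5, 17.4 and 16.8 in KO-SD, and 10.3, 10.6 and 9.99 in KO-TGF. In SD one KO library lay within the WT range and the other two below it, while after TGF-β the genotypes were apart. It was lower in KO-SD by -0.17 ± 0.0670 (adjusted p 0.0358), a call that was lost with DESeq2 (adjusted p 0.0772), without a filter, with the filter on CPM and without any of 4 libraries, WT-SD replicates 1 and 2 and KO-SD replicates 2 and 3 (adjusted p up to 0.212). It was lower in KO-TGF by -0.50 ± 0.0824 (adjusted p 5.44e-06). TGF-β lowered it 1.40-fold in WT (adjusted p 3.18e-07) and 1.77-fold in KO (adjusted p 9.81e-11).

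Whether the genotypes responded unequally was tested directly, as the interaction of genotype and treatment. It passed for exactly these 3 receptors of the 10 genes, each of which fell more in KO, against 16.6% of all genes with an interaction below 0 and 8.67% with one above 0 (1915 and 1000 genes). This background was less uneven with DESeq2 (1335 and 1019 genes) and without any one KO-TGF library (1377 to 1420 and 1249 to 1327 genes). The log2 response in KO minus that in WT was -0.37 ± 0.0734 for Tlr4 (adjusted p 0.000205), -0.34 ± 0.0869 for Tlr2 (adjusted p 0.00331) and -0.34 ± 0.106 for Tlr3 (adjusted p 0.0188). The call for Tlr3 was lost with DESeq2 (adjusted p 0.0895) and without KO-SD replicate 1 or any one of the 3 KO-TGF libraries (adjusted p between 0.0513 and 0.0931). For the other members the interaction did not pass, with 95% intervals such as -0.04 to 0.18 for Ddx58, -0.25 to 0.30 for Ifih1 and 0.02 to 0.35 for Myd88 (adjusted p 0.105).

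**Figure D4:**
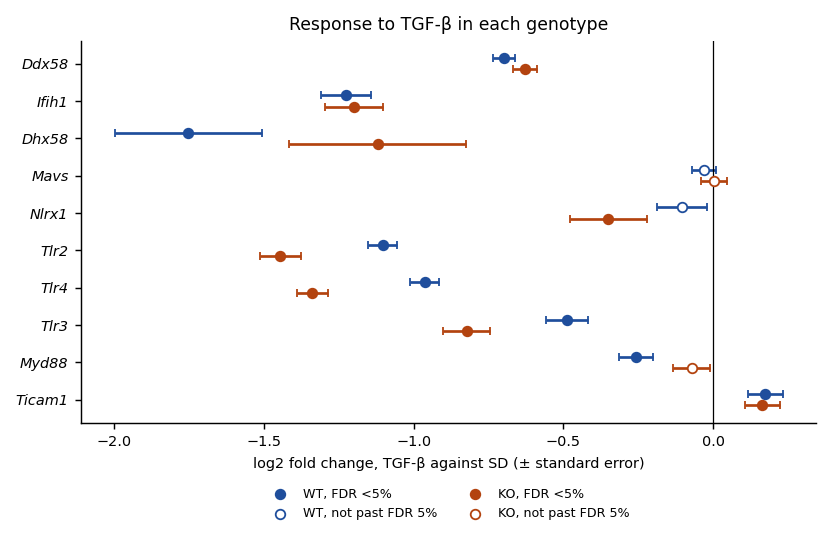
Log2 fold change of each gene with TGF-β (x axis, error bars standard error) in WT (blue) and in KO (orange), filled where FDR was below 5%. Tlr2, Tlr3 and Tlr4 lie further left in KO than in WT, Ddx58 and Ifih1 almost coincide, and Dhx58 has the widest errors.

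Among the helicases, Ddx58 (RIG-I, chr4:40203777-40239825, minus strand) was the most abundant and differed little between genotypes. It stood at 73.8, 76.4 and 79.5 CPM in WT-SD, 46.4, 47.9 and 47.3 in WT-TGF, 68.3, 69.2 and 70.0 in KO-SD, and 45.0, 44.9 and 44.4 in KO-TGF. The 4 groups did not overlap, and the step between conditions was larger than that between genotypes. TGF-β lowered Ddx58 1.62-fold in WT (log2 -0.70 ± 0.0376; adjusted p 1.24e-16) and 1.55-fold in KO (-0.63 ± 0.0393; adjusted p 4.11e-15). It was 1.11-fold lower in KO-SD (adjusted p 0.000766), and after TGF-β the difference was -0.08 with a 95% interval of -0.16 to 0.01 (adjusted p 0.116).

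Ifih1 (MDA5, chr2:62595618-62646255, minus strand), which recognises long double-stranded RNA, fell more steeply with TGF-β than Ddx58 and was lower in KO in both conditions. Its CPM were 15.6, 15.7 and 16.9 in WT-SD, 7.0, 6.78 and 6.82 in WT-TGF, 12, 11.8 and 10.5 in KO-SD, and 5.57, 4.65 and 4.73 in KO-TGF. Again no groups overlapped. The fall with TGF-β was 2.34-fold in WT (adjusted p 3.48e-14) and 2.30-fold in KO (adjusted p 2.56e-12). Ifih1 passed the RPKM limit through SD libraries only, so the way it was chosen favoured this fall. Between genotypes it was 1.40-fold lower in KO-SD (log2 -0.49 ± 0.0748; adjusted p 1.76e-06) and 1.38-fold lower in KO-TGF (-0.46 ± 0.109; adjusted p 0.000605).

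Dhx58 (LGP2, chr11:100694884-100704271, minus strand), the helicase without a signaling domain of its own, was the rarest, with 46, 52 and 51 counts in the WT-SD libraries, 6, 20 and 15 in WT-TGF, 32, 25 and 26 in KO-SD, and 13, 12 and 8 in KO-TGF. Group means were 2.22 ± 0.118, 0.639 ± 0.317, 1.29 ± 0.156 and 0.586 ± 0.146 CPM in that order, and the TGF-β groups of the genotypes overlapped. In the fit without the RPKM limit, where 17.9% of 18565 genes were lower in KO-SD and 25.8% and 28.5% fell with TGF-β in WT and KO (6.88% and 9.54% by more than 2-fold), it fell 3.37-fold with TGF-β in WT (adjusted p 5.16e-12) and 2.17-fold in KO (adjusted p 0.000394), and was 1.69-fold lower in KO-SD (adjusted p 0.00111). At this depth no difference was detectable after TGF-β (log2 -0.12, 95% interval -0.80 to 0.56, adjusted p 0.857).

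The adaptors differed by at most 1.19-fold in every comparison. Mavs (chr2:131234063-131248025, plus strand), the adaptor of the helicases, stood at 52.2, 51.1 and 55.0 CPM in WT-SD, 51.2, 52.8 and 50.8 in WT-TGF, 45.4, 44.9 and 44.7 in KO-SD, and 46.6, 44.0 and 44.8 in KO-TGF. The genotypes were apart and the conditions overlapped within each. It was 1.17-fold lower in KO-SD (adjusted p 1.47e-05) and 1.14-fold lower in KO-TGF (adjusted p 0.000186), while the log2 response to TGF-β was -0.03 in WT (95% interval -0.11 to 0.05) and 0.00 in KO (-0.08 to 0.09). With scaling by library size alone it passed as a fall in both (log2 -0.19 and -0.20), where the median of all genes was -0.16 and -0.23.

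Myd88 (chr9:119335934-119340018, minus strand), the adaptor of most Toll-like receptors, had 22.3, 22.7 and 21.7 CPM in WT-SD, 18.7, 18.1 and 19.1 in WT-TGF, 18.6, 19.5 and 18.7 in KO-SD, and 17.8, 18.5 and 17.7 in KO-TGF. WT-SD stood above the other groups. WT-TGF overlapped both groups labelled KO, which did not overlap each other. It was 1.18-fold lower in KO in SD (adjusted p 0.000730) and fell 1.19-fold with TGF-β in WT (adjusted p 0.000176), and neither the response in KO (adjusted p 0.285) nor the difference after TGF-β (adjusted p 0.521) passed. With library size alone both did, as lower (adjusted p 0.000149 and 0.0171). In GENCODE the span of the gene overlaps that of Slc22a14 on the same strand. Reads in exons of both would not be counted, and whether their exons overlap was not checked.

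Ticam1 (TRIF, chr17:56269462-56276767, minus strand), the adaptor of Tlr3 and of endosomal Tlr4, was the only member that rose. Its CPM were 19.3, 20.7 and 19.9 in WT-SD, 22.8, 22.3 and 22.5 in WT-TGF, 23.0, 21.3 and 21.0 in KO-SD, and 22.9, 25.6 and 24.6 in KO-TGF. The KO-SD libraries overlapped those of WT-TGF and lay above those of WT-SD. It rose 1.13-fold with TGF-β in WT (adjusted p 0.00929) and 1.12-fold in KO (adjusted p 0.0132), and with scaling by library size alone the log2 change was 0.02 in WT and -0.04 in KO, past the test in neither. Without KO-SD replicate 3 the call in KO was lost too (adjusted p 0.0613). The differences between genotypes did not pass in SD (log2 0.12, adjusted p 0.0799) or after TGF-β (0.11, adjusted p 0.106).

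Nlrx1 (chr9:44252713-44268599, minus strand) showed the reverse of the helicases, with a large difference between genotypes and a small response to TGF-β. It stood at 13.8, 13.6 and 15 CPM in WT-SD, 11.5, 13.4 and 14.5 in WT-TGF, 5.47, 6.66 and 5.60 in KO-SD, and 5.03, 4.87 and 3.99 in KO-TGF. Each library labelled KO lay below each WT library, and the WT groups overlapped. Nlrx1 was 2.40-fold lower in KO-SD (log2 -1.26 ± 0.0991; adjusted p 2.59e-12) and 2.84-fold lower in KO-TGF (-1.51 ± 0.110; adjusted p 5.14e-13). The response to TGF-β was -0.10 in WT (95% interval -0.28 to 0.07; adjusted p 0.272) and -0.35 ± 0.129 in KO (adjusted p 0.0165). With library size alone it passed in WT too (adjusted p 0.00650), and the call in KO was lost without KO-SD replicate 2 (adjusted p 0.10) or KO-TGF replicate 3 (adjusted p 0.143). The responses were not shown to differ (interaction -0.25, 95% interval -0.56 to 0.07, adjusted p 0.274).

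**Figure D5:**
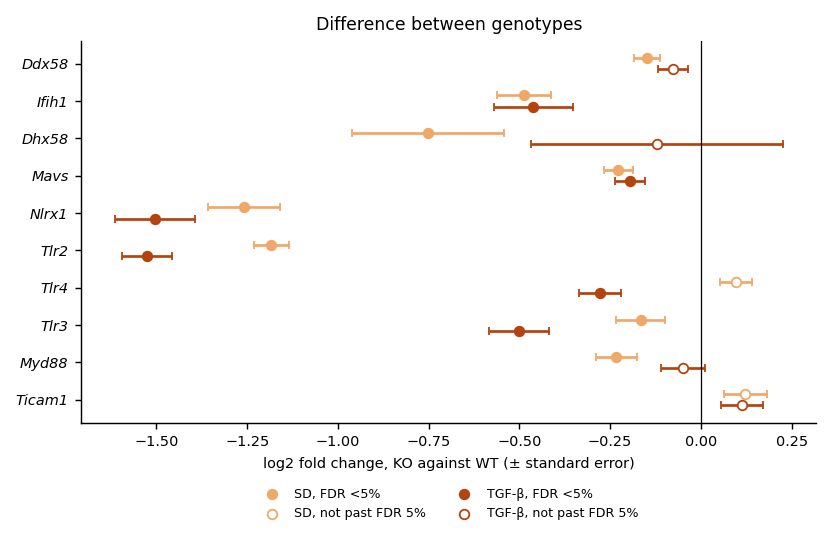
Log2 fold change of each gene in KO against WT (x axis, error bars standard error) in SD (light) and after TGF-β (dark), filled where FDR was below 5%. Nlrx1 and Tlr2 lie beyond -1 in both conditions, Ticam1 lies right of 0 without passing, and Tlr4 is on opposite sides of 0 in the 2 conditions.

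Over the 12 libraries, the genes whose log2 CPM followed each member most closely were named among the 11529 genes tested, as a description over libraries that share the same 4 groups. Tlr2 was followed by Cp and Sirpa (Pearson r 0.997 and 0.996), Tlr4 by Cxcl12 and Cand2 (0.996 and 0.995), and Tlr3 by Mtx3 and Bicc1 (0.993 and 0.991). Ddx58 was followed by Nedd4l and Epb41 (0.997 and 0.995) and Ifih1 by Ankrd46 and Atxn7l1 (0.995 and 0.994). The closest genes to Nlrx1 were Arhgap27 and Arhgap28 (both 0.986) and those to Mavs were Son and Il1a (0.975 and 0.973). Myd88 was followed by Atg10 and Map3k12 (0.971 and 0.967) and Ticam1 by Trdmt1 and Manbal (0.955 and 0.946). No member was among the closest genes of another.

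Around the helicases, 34 regulators and effectors of RIG-I-like receptor signaling moved in both directions. In KO-SD 7 were higher, 15 lower and 12 not past the test, and in KO-TGF 6 were higher, 13 lower and 15 not past it. Of all genes tested, 30.9% were higher and 25.2% lower in SD, and 27.2% and 27.8% after TGF-β. The list's median log2 fold change was -0.09 in SD and -0.13 after TGF-β. Of the 34, 30 passed the RPKM limit, and the others, Nlrc5 among them, are read from the fit without it. In that fit 17.9% of genes were lower in SD, and 3770 of 18565 after TGF-β. Nlrc5, an NLR protein and activator of MHC class I genes, was 3.53-fold lower in KO-SD, with 0.704 ± 0.207 CPM against 2.54 ± 0.341, and 7.18-fold lower in KO-TGF. The ubiquitin ligase Rnf125, which marks RIG-I for degradation, was 2.26-fold and 2.19-fold lower, at levels near 1 CPM. Rnf125 passed the RPKM limit through WT libraries only. Ikbke, a kinase that activates interferon regulatory factors, was 2.04-fold lower in KO-SD (22.2 ± 1.15 against 45.2 ± 1.15 CPM), and Irf7, the interferon regulatory factor that amplifies the response, was 1.90-fold lower in KO-TGF.

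Higher in KO at FDR <5% were genes with other roles as well. Pcbp2, an RNA-binding protein known to promote turnover of Mavs, was 1.21-fold higher in KO-SD and 1.25-fold higher in KO-TGF. The kinase scaffold Tank was 1.17-fold and 1.10-fold higher, the RNA helicase Dhx15 1.17-fold higher in SD, and the mitochondrial fusion protein Mfn2, which binds Mavs, 1.13-fold higher after TGF-β. With scaling by library size alone Tank (log2 0.02) and Mfn2 (0.06) no longer passed after TGF-β, nor did Tank without WT-TGF replicate 1 (adjusted p 0.0818). With TGF-β itself, 9 of the 34 rose and 15 fell in WT, beside 36.0% and 36.4% of all genes, and 9 rose and 15 fell in KO, beside 34.9% and 39.1%. In the fit without the RPKM limit 25.8% fell in WT and 28.5% in KO.

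Among 34 partners of the Toll-like receptors, 22 of which passed the RPKM limit, 7 were higher and 12 lower in KO-SD, and after TGF-β 4 and 12, with medians of -0.10 and -0.16. Among all genes tested the shares were 30.9% and 25.2% in SD and 27.2% and 27.8% after TGF-β. The other 12 partners are read from the fit without the limit, where 17.9% of genes were lower in SD, and 3770 of 18565 after TGF-β. Unc93b1, the chaperone that carries endosomal receptors such as Tlr3 from the endoplasmic reticulum, was 2.98-fold lower in KO-SD (2.65 ± 0.145 against 7.90 ± 0.459 CPM) and 3.53-fold lower in KO-TGF. Unc93b1 also passed the RPKM limit through WT libraries only. Cd14, the lipopolysaccharide coreceptor of Tlr4, was 1.61-fold lower in SD and 2.50-fold lower after TGF-β, and Irak3, an inhibitory kinase homologue of the Myd88 pathway, 1.79-fold and 2.21-fold lower. In the other direction, the kinase Irak2 was 1.43-fold and 1.36-fold higher, the chaperone Hsp90b1 1.28-fold and 1.23-fold higher, Tlr6, a partner of Tlr2, 1.31-fold higher in SD (not past the test without KO-SD replicate 1, adjusted p 0.0517), and the kinase Irak4 1.21-fold higher after TGF-β, a call that scaling by library size alone removed. With TGF-β, 6 of the 34 rose and 10 fell in WT, and 5 rose and 12 fell in KO, beside 36.0% and 36.4% of all genes in WT and 34.9% and 39.1% in KO. In the fit without the limit 25.8% fell in WT and 28.5% in KO.

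The genes these pathways are known to switch on, interferon-stimulated genes and inflammatory cytokines, were mostly lower in KO and fell with TGF-β. Of 28 on the list 25 had a count (Ifnb1, Ifna4 and Oas1a had none). In KO-SD 18 were lower and 1 higher, with a median of -0.56, and in KO-TGF 17 were lower and 1 higher, with a median of -0.71. Of all genes tested, 25.2% and 27.8% were lower in these comparisons. In the fit without the RPKM limit, which supplies 6 of the 25, 17.9% were lower in SD, and 3770 of 18565 after TGF-β. TGF-β lowered 19 and raised 2 in WT, and lowered 15 and raised 2 in KO, where 36.4% and 39.1% of all genes fell. In the fit without the RPKM limit 25.8% fell in WT and 28.5% in KO. In KO-SD, Il1b and Tnf, cytokines typical of macrophages, had no count, against 1.83 ± 0.259 and 1.65 ± 0.304 CPM in WT-SD, and were at least 13.1-fold and 11.8-fold lower, computed against a floor of 3 counts per library. The neutrophil chemokine Cxcl2 averaged 0.109 ± 0.0253 CPM in KO-SD against 3.01 ± 0.363 in WT-SD, and in KO-TGF it had no count and was at least 6.60-fold lower. The T cell chemokine Ccl5 averaged 0.0707 ± 0.0613 CPM in KO-TGF against 1.26 ± 0.457 in WT-TGF, and Il1b had a single count over the 3 KO-TGF libraries. Il1b, Tnf, Cxcl2 and Ccl5 passed the RPKM limit through WT libraries only, so the way they were chosen favoured a lower value in KO. Il6 went the other way, at 8.21 ± 0.222 CPM in KO-TGF against 4.23 ± 0.652 in WT-TGF (log2 0.96 ± 0.122; adjusted p 7.06e-08). Between genotypes the low cytokine counts moved together with the macrophage markers described above, and the part of the latter in them was not tested. With TGF-β in WT, Tnf, Cxcl2 and Ccl5 passed the test as lower, and Il1b did not (log2 -0.09, adjusted p 0.736). Tnf and Cxcl2 passed the RPKM limit through WT-SD libraries only (WT-TGF means 0.343 and 0.509 RPKM), which favoured a fall with TGF-β.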

How the data were processed

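RNA was extracted and mRNA libraries were made with a Kapa kit, and single-end reads were aligned to mm10 with TopHat and assigned to RefSeq genes with HTSeq by the authors, who counted on the strand of the gene. What the authors deposited are the resulting counts, whole numbers per gene and library without normalization. Rows that name no gene, such as reads outside exons (10.3% to 15.4%), were left out of library sizes. Samples were grouped by genotype and treatment in the labels. Counts were scaled by TMM and fitted in edgeR 4.0.16 (R 4.3.3, limma 3.58.1) with one mean per group over all 12 libraries, and 5 contrasts were tested by quasi-likelihood F tests, with p-values adjusted by Benjamini-Hochberg. Called genes had FDR <5%, and a fold change >2 was counted separately. Genes with RPKM >1 in at least 1 library were tested (11529), with exon lengths from GENCODE vM21, and values of genes below this come from a fit without that limit, on 18565 genes. The script was tested on simulated data. CPM intervals and the floor of 3 counts cover counting error only. Library sizes and the dispersion set the precision (common biological coefficient of variation 0.0268).

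The members and the gene lists were chosen with earlier results of these data known. In each partner or output list, the text names, for each genotype comparison, the 3 genes most raised and the 3 most lowered by log2 fold change, if past FDR 5% and at 1 CPM or more in the higher group. It also names the 2 genes with the highest Pearson r for each tested member. The alternatives were DESeq2 1.42.0 (no independent filtering), library size alone, no filter, CPM >1 in at least 3 libraries, a replicate block, only the groups compared, and each library left out.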

Additional observations from a re-analysis of the deposited data

Results flagged for a closer look

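The response to TGF-β differed between genotypes by the test of the interaction for 3 of the 10 genes. The log2 response in KO minus that in WT was -0.34 for Tlr2, -0.34 for Tlr3 and -0.37 for Tlr4, each a larger fall in KO. The summed macrophage markers went from 30.6 to 32.8 CPM in WT-SD to 19.3 to 23.8 in WT-TGF and from 2.43 to 2.70 in KO-SD to 1.18 to 1.87 in KO-TGF, and their part in these differences was not tested.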

How the results depend on the processing

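Most values kept their direction and their side of the threshold. The labels number replicates alike in each group, but the replicate numbers did not pair the libraries: deviations from group means correlated between -0.03 and 0.08 for the 18 pairs with the same number and between -0.09 and 0.04 for the 36 others. With the replicate block 1 member (Tlr4) was higher in KO-SD instead of 0, without a filter 2 were (Tlr4 and Ticam1), and with the filter on CPM 1 was. Library size alone moved the median of all genes by -0.12 in KO-TGF against WT-TGF, -0.16 for TGF-β in WT and -0.20 in KO. It left 0 members higher with TGF-β in WT and 0 in KO. Among the RIG-I-like receptor partners it gave 4 higher in SD, and 1 higher and 20 lower after TGF-β, and among the Toll-like receptor partners 4 higher in SD, and 2 higher and 21 lower after TGF-β. The single output gene higher in KO-SD became 0 with library size alone, DESeq2 and only the groups compared. The direction turned, for values that passed no test in the main analysis, with library size alone for Ticam1 in KO-TGF against WT-TGF (-0.0089) and for the interaction of Mavs (-0.012) and Ifih1 (-0.020), and with DESeq2 for the interaction of Ticam1 (0.018). It also turned for TGF-β in KO with library size alone for Mavs (-0.20, where it passed the test as lower) and for Ticam1 (-0.039), which had passed as higher. The cause was not tested.

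Without each library in turn, members higher ranged from 0 to 1 in KO-SD (1 without KO-SD replicate 3), 0 to 1 in KO-TGF (1, Ticam1, without KO-TGF replicate 1) and 0 to 1 for TGF-β in KO, and output genes higher in KO-SD from 0 to 1. Log2 fold changes that turned ranged from -0.47 to 0.22 for Dhx58 in KO-TGF against WT-TGF, -0.049 to 0.0030 and -0.0016 to 0.043 for Mavs with TGF-β in WT and KO, -0.030 to 0.11 for the interaction of Ifih1 and -0.040 to 0.074 for that of Ticam1. Depth limits Dhx58, with 6 to 52 counts per library.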
